A study of Mus musculus with 8 samples.

Results

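The clustered protocadherins are cell surface proteins of the cadherin superfamily, encoded by 3 gene clusters, alpha, beta and gamma, that lie side by side on one chromosome. Members were taken by name alone, as every protein-coding gene whose mouse symbol starts with Pcdha, Pcdhb or Pcdhg. The GENCODE M21 annotation lists 57 such genes, of which 14 are alpha, 22 beta and 21 gamma. Of the 38924 gene identifiers in the deposited tables, 24 belonged to them. Each of the 22 beta genes had a row of its own, while the alpha and the gamma cluster had 1 row each.

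Each neuron expresses a small, partly random choice of these genes, and the proteins bind only to the same combination on another cell surface. This gives neurons a surface identity by which branches of the same cell recognise and avoid each other. In the alpha and gamma clusters each first exon, with its own promoter, is spliced to constant exons that encode a common cytoplasmic end, whereas each beta gene is a single coding exon without a constant part. In the spinal cord the gamma proteins are known for the survival and synapse formation of interneurons.

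Every mouse had a RiboTag allele, in which Cre recombinase turns on an HA tag on the ribosomal protein Rpl22, and ribosomes were precipitated from whole spinal cord with an antibody against HA. Chat-Cre acts in cholinergic cells, which in the cord include motor neurons, and mice without Cre measure the mRNA that comes down without the tag. All mice were of the strain background B6.CgxB6.129, carried the tag allele as Rpl22 +/-, and were wild type for Gars. Each of the 4 groups held 2 animals. With Cre, the uncrushed mice were animals 10 and 3 and the mice with a crush of the sciatic nerve on 1 side were animals 35 and 52. Without Cre, the uncrushed mice were animals 4 and 6 and the crushed mice were animals 51 and 58. Whole cords were used, so cholinergic cells away from the injured nerve were tagged too. Groups follow the library titles. The genotype entry goes against the title for animal 3, entered as Chat +/+, and for animal 4, entered as Chat +/-. Uncrushed mice were 8 weeks old and crushed mice 9 weeks, except for animal 35 at 18 weeks. A further number, of unstated meaning, stands in every uncrushed title and in no crushed one. Crush therefore cannot be told apart from age or from what that number stands for.

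Library totals ran from 4826979 to 11522721 expected counts, which are the authors' estimates of reads per gene. Levels below are in CPM, the usual scaled counts, computed on library totals adjusted by the trimmed mean of M-values (TMM). Chat, which encodes the acetylcholine-synthesising enzyme, was at 78.1 to 126 CPM with Cre and 3.82 to 5.14 CPM without. Slc5a7, the choline transporter, was at 526 to 574 CPM with Cre and 24.1 to 38.6 CPM without. In both genes animals 3 and 4 lay with the group of their title. The 8 motor neuron markers measured summed to 1974 to 2422 CPM with Cre and 97.0 to 183 CPM without, with Mnx1 at 0 in both uncrushed libraries without Cre. The share of mitochondrial ribosomal RNA was 1.61 to 5.53% of counts with Cre and 11.5 to 48.2% without.

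The alpha and gamma rows were read as pooled rows of several isoforms, not as single genes. The alpha row (ENSMUSG00000007440, given the symbol Pcdha11 by the identifier table) listed 9 transcripts, which GENCODE M21 assigns to Pcdha1, Pcdha2, Pcdha9, Pcdha11, Pcdha12, Pcdhac1, Pcdhac2 and the gene model Gm42416. The gamma row (ENSMUSG00000023036, symbol Pcdhgc4) listed 9 transcripts, assigned to Pcdhga3, Pcdhga8, Pcdhga9, Pcdhga11, Pcdhga12, Pcdhgb6, Pcdhgc3, Pcdhgc4 and Pcdhgc5. Cut into stretches of 50 bases, the 8 alpha transcripts other than Gm42416 had 48.2 to 61.4% of their stretches in another transcript of the same row, and the 9 gamma transcripts 41.2 to 46.3%. The single C-type genes, Pcdhac1, Pcdhac2, Pcdhgc3, Pcdhgc4 and Pcdhgc5, therefore have no separate value here. Gm42416 had 14.2% of its stretches in gamma transcripts, so reads from those bases can be credited to either row. Other alpha and gamma genes had no transcript listed in these rows and no row of their own, so neither row covers its whole cluster. Below, the 2 rows are called the alpha locus and the gamma locus.

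The gamma locus was at a lower level in precipitates with Cre than in those without, which measure mRNA that comes down without the tag. Over all libraries the Cre and no-Cre ranges of the alpha locus and of the summed beta genes overlapped. With Cre, the gamma locus stood at 85.1 CPM (animal 10) and 82.6 CPM (animal 3) in uncrushed mice, and at 70.8 CPM (animal 35) and 80.8 CPM (animal 52) in crushed mice. Without Cre it stood at 120 CPM (animal 4) and 151 CPM (animal 6) in uncrushed mice, and at 117 CPM (animal 51) and 114 CPM (animal 58) in crushed mice. All 4 libraries with Cre were below all 4 without, as in 25.2% of all genes tested. The log2 fold change over all 8 libraries was -0.65 ± 0.15 (SE; adjusted p = 0.00264, edgeR quasi-likelihood test with Benjamini-Hochberg adjustment), with crush as a covariate. By the same test it was -0.69 ± 0.22 in uncrushed mice (adjusted p = 0.0245) and -0.61 ± 0.22 in crushed mice (adjusted p = 0.0405). Among all genes tested, 31.2% were called lower with Cre over all libraries, 21.9% in uncrushed and 21.3% in crushed mice.

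**Figure D1:**
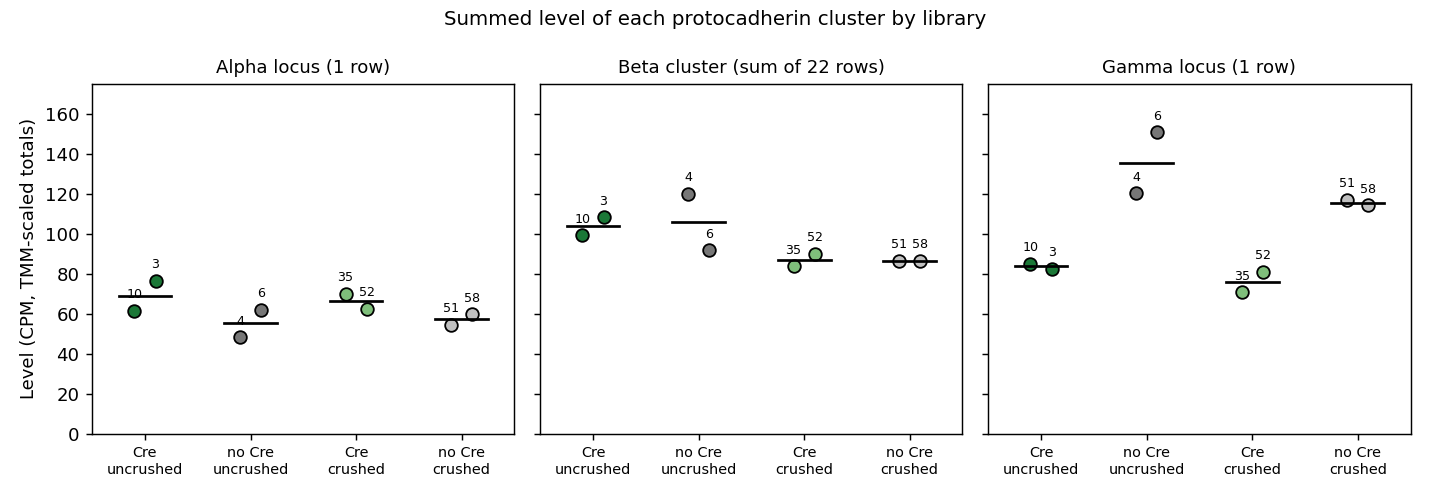
Level of the alpha locus, the summed beta genes and the gamma locus in CPM on the vertical axis, in the 4 groups on the horizontal axis. Points are single libraries numbered by animal, and lines are group means. In the gamma panel the Cre libraries lie at 70.8 to 85.1 CPM and the no-Cre libraries at 114 to 151 CPM, whereas the pooled Cre and no-Cre ranges overlap in the alpha and beta panels.

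With Cre, the alpha locus stood at 61.4 CPM (animal 10) and 76.6 CPM (animal 3) in uncrushed mice, and at 70.1 CPM (animal 35) and 62.4 CPM (animal 52) in crushed mice. Without Cre it stood at 48.3 CPM (animal 4) and 62.1 CPM (animal 6), and after crush at 54.6 CPM (animal 51) and 59.7 CPM (animal 58). Over all libraries the ranges with and without Cre overlapped, and among crushed mice both libraries with Cre were above both without. The share of all genes with the latter pattern was not computed. Its log2 fold change over all libraries, 0.26 ± 0.16, did not pass the edgeR quasi-likelihood test (adjusted p = 0.169), with an approximate 95% interval from -0.05 to 0.58. The 22 beta rows summed to 99.2 and 108 CPM in Cre uncrushed, 83.6 and 90.0 CPM in Cre crushed, 120 and 91.7 CPM in no-Cre uncrushed and 86.4 CPM in each no-Cre crushed library. The beta sum differed between Cre and no Cre by less than its spread between animals, with log2 ratios of group means of -0.03 in uncrushed and 0.01 in crushed mice.

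These directions rest in part on the scaling. With library size alone as the scale, the median log2 fold change over the 15208 genes tested rose by 0.40 over all libraries, by 0.68 in uncrushed mice and by 0.14 in crushed mice. The fold change of the gamma locus became -0.25 over all libraries (adjusted p = 0.443, edgeR quasi-likelihood test), and that of the alpha locus became 0.68 (adjusted p = 0.0485). Relative to the median of all genes, the gamma locus stood at -0.58 with either scale and the alpha locus at 0.33 and 0.35. The call of the gamma locus over all libraries passed the threshold with each of the 8 libraries left out in turn, with log2 fold changes of -0.66 to -0.52. It was lost within uncrushed mice with any of animals 35, 52, 10, 3 or 6 left out (-0.68 to -0.46) and within crushed mice with any of animals 35, 51, 52, 58, 10 or 3 left out (-0.66 to -0.48). Without both animals whose genotype entry goes against the title, the gamma locus was at -0.63 over all libraries (adjusted p = 0.0146), at -0.78 in uncrushed mice (adjusted p = 0.113) and at -0.56 in crushed mice (adjusted p = 0.07), by the edgeR quasi-likelihood test.

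Counts of the alpha locus, the gamma locus and the summed beta genes within a library can be compared without any scaling between libraries. Alpha and gamma stand here for the 2 loci. Alpha made up 41.9% (exact 95% Clopper-Pearson interval 39.0 to 44.9%) of the alpha plus gamma counts in Cre uncrushed animal 10 and 48.1% (45.7 to 50.6%) in animal 3. In Cre crushed animals it made up 49.8% (47.7 to 51.9%) in animal 35 and 43.6% (41.3 to 45.9%) in animal 52. Without Cre the share was 28.6% (24.4 to 33.2%) in uncrushed animal 4 and 29.2% (26.1 to 32.5%) in animal 6, and 31.9% (29.3 to 34.5%) in crushed animal 51 and 34.3% (31.4 to 37.3%) in animal 58. Every library with Cre had a higher alpha share than every library without, and no interval of one kind reached an interval of the other. These intervals cover counting error only, from 433 to 2229 counts, and not the spread between animals. The ratio of beta to gamma counts was 1.11 to 1.31 with Cre and 0.609 to 0.997 without, again without overlap, with animal 4 the highest of the no-Cre libraries. The ratio of alpha to beta counts overlapped, at 0.619 to 0.838 with Cre and 0.403 to 0.690 without. The shares and ratios were chosen after the levels had been seen and are given without a test.

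**Figure D2:**
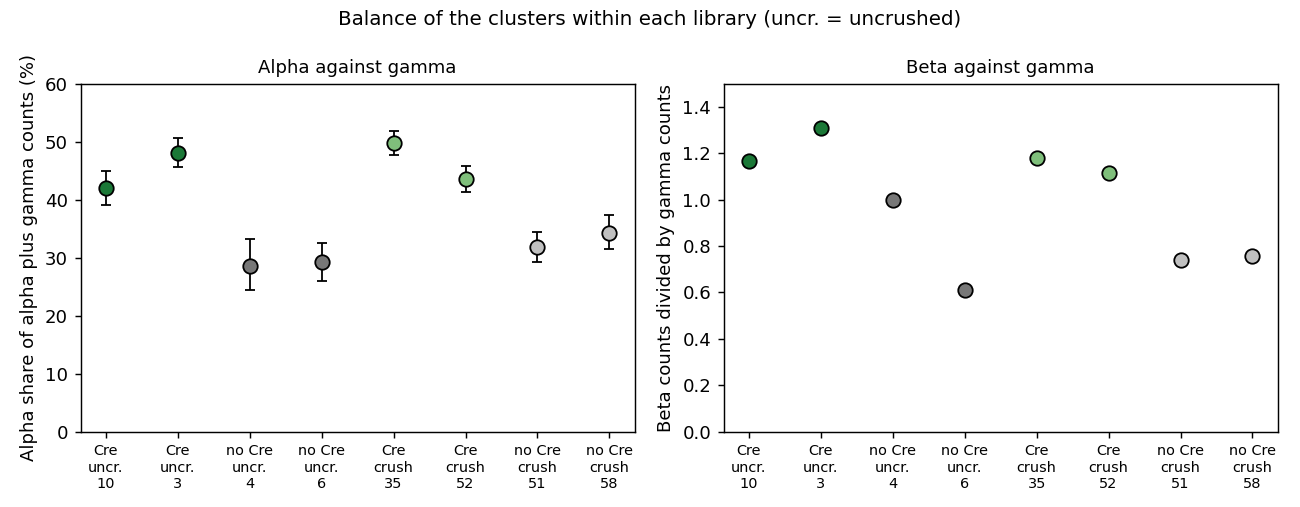
Alpha share of alpha plus gamma counts in percent (left, bars are exact 95% intervals for counting error) and beta counts divided by gamma counts (right), for each of the 8 libraries on the horizontal axis. Libraries with Cre lie at 41.9 to 49.8% and 1.11 to 1.31, and those without at 28.6 to 34.3% and 0.609 to 0.997.

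Markers of other cells moved with Cre as well. The interneuron markers, 8 genes of inhibitory and excitatory neurons, summed to 183 to 272 CPM with Cre and 472 to 674 CPM without. The 8 oligodendrocyte markers summed to 719 to 1850 CPM with Cre and 4667 to 7896 CPM without, and the 8 astrocyte markers to 828 to 995 and 2218 to 3449 CPM. Among the astrocyte markers S100b was higher with Cre, at 0.73 ± 0.25 (adjusted p = 0.0211, edgeR quasi-likelihood test), while the other 7 were lower. The 12 pan-neuronal markers summed to 41210 to 60310 CPM with Cre and 5575 to 12097 CPM without. The 8 microglial markers summed to 6.40 to 15.2 CPM with Cre and 56.4 to 133 CPM without. None of these markers was at 0 throughout a group. Their part in the lower gamma level was not tested, and in such bulk samples fewer cells of a type and less RNA per cell cannot be told apart.

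Per length, the 2 loci were far above any single beta gene. In CPM per kilobase of effective length, the mean over 8 libraries was 22.3 for the gamma locus and 13.0 for the alpha locus, both of which pool many isoforms. The highest single beta genes were Pcdhb17 at 3.40, Pcdhb20 at 2.32 and Pcdhb16 at 2.14 CPM per kilobase, and the median beta gene was at 1.13. The 22 beta genes together came to 23.3 to 33.7 CPM per kilobase in a library. Beta genes are numbered by their order along the chromosome, with Pcdhb22 at the end towards the gamma cluster. The 7 highest, Pcdhb17, Pcdhb20, Pcdhb16, Pcdhb18, Pcdhb22, Pcdhb15 and Pcdhb14, all came from number 14 or above in the mean over all libraries. This did not hold within either kind of library. With Cre, Pcdhb9 and Pcdhb7 took the places of Pcdhb18 and Pcdhb15, and without Cre, Pcdhb7 took that of Pcdhb14. Pcdhb1 had 9 counts over all libraries, 5 of them in no-Cre uncrushed animal 4, and it was the 1 member that did not pass the filter on low counts.

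**Figure D3:**
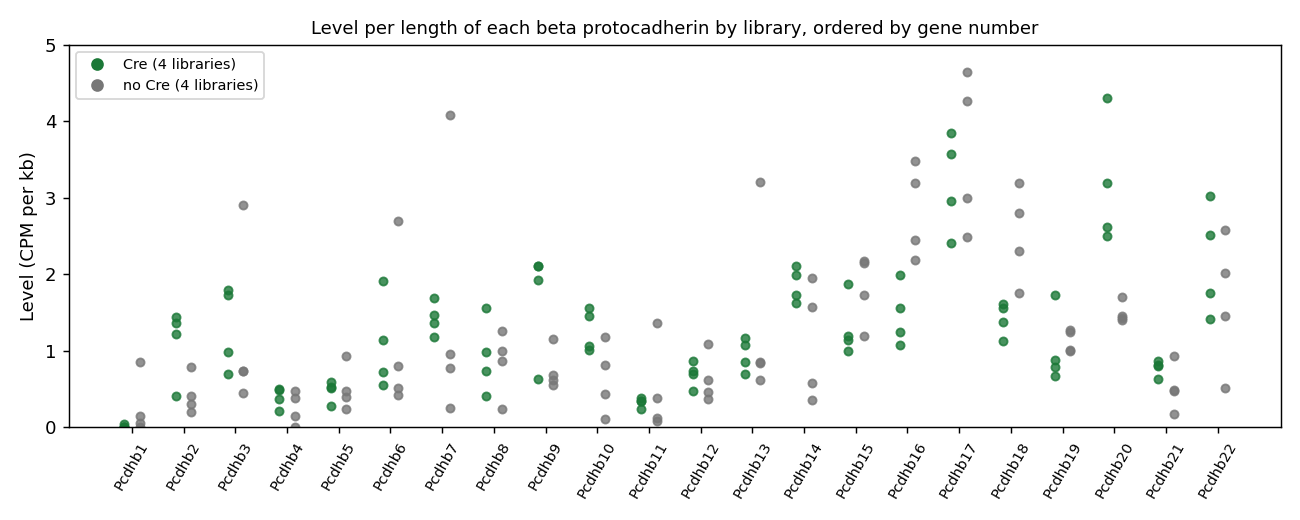
Level of each beta gene in CPM per kilobase of effective length on the vertical axis, with genes by number on the horizontal axis and 1 point per library. Pcdhb17 has the highest mean both with and without Cre, and the isolated high no-Cre points of Pcdhb3, Pcdhb7 and Pcdhb13 are all animal 4.

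The counts behind single beta genes were small. Over all 8 libraries they summed to between 9 and 641 counts a gene, 15 of the 22 fell under 10 counts in at least 1 library, and 5 never reached 30. No-Cre uncrushed animal 4, with 308 beta counts, was the shallowest library after scaling, where 3 counts correspond to 1.17 CPM. It held the highest values of the series for Pcdhb3 (10.5 CPM), Pcdhb7 (13.6 CPM) and Pcdhb13 (11.3 CPM), whose other 7 libraries lay at or below 6.49, 5.64 and 4.10 CPM. Animal 4 was also highest for Pcdhb11 (4.67 CPM, against at most 1.33 CPM elsewhere), Pcdhb1, Pcdhb5, Pcdhb12 and Pcdhb18. Neighbouring beta genes are also alike in sequence, with up to 11.99% of the 50-base stretches of a beta transcript found in another (median 4.27%).

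Pcdhb17, the most abundant beta gene per length, was at 11.95 and 11.1 CPM in Cre uncrushed, 7.46 and 9.16 CPM in Cre crushed, 13.2 and 14.4 CPM in no-Cre uncrushed and 7.70 and 9.31 CPM in no-Cre crushed libraries. Both crushed libraries were below both uncrushed ones with and without Cre, patterns found singly in 24.0% and 19.1% of all genes. The Cre and no-Cre ranges overlapped. Over all libraries its log2 fold change with Cre was -0.15 ± 0.23.

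Of the 23 members tested, 2 were higher and 3 lower with Cre over all 8 libraries, against 28.7% higher and 31.2% lower among all 15208 genes. In either direction 59.9% of all genes were called, and the difference between the members' share and that of all genes was not tested. Their median log2 fold change was 0.17, and that of all genes -0.07. The higher ones were Pcdhb20 and Pcdhb9, and the lower ones Pcdhb16, Pcdhb18 and the gamma locus. With library size alone as the scale the 5 calls were all higher, none lower, and comprised Pcdhb20, Pcdhb9, Pcdhb2, Pcdhb10 and the alpha locus.

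With Cre, Pcdhb20 stood at 13.9 CPM (animal 10) and 8.46 CPM (animal 3) in uncrushed mice, and at 8.03 and 10.3 CPM in crushed mice. Without Cre it was at 4.67 and 4.53 CPM in uncrushed and 4.60 and 5.48 CPM in crushed libraries. It was the 1 member with all 4 Cre libraries above all 4 others, a pattern found in 25.8% of all genes. The log2 fold change was 1.05 ± 0.29 (adjusted p = 0.00682, edgeR quasi-likelihood test), or 2.07-fold, and it passed the threshold with each library left out (0.90 to 1.2) and at 1.46 with library size alone.

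With Cre, Pcdhb9 stood at 1.82 CPM (animal 10) and 5.54 CPM (animal 3) in uncrushed mice, and at 6.07 and 6.08 CPM in crushed mice. Without Cre it was at 1.95 and 1.60 CPM in uncrushed and 1.76 and 3.32 CPM in crushed libraries. Animal 10 lay among the no-Cre libraries and the other 3 Cre libraries above them. The log2 fold change of 1.19 ± 0.45 (adjusted p = 0.0345, edgeR quasi-likelihood test) lost its call without animal 35, 51, 52 or 3, with values of 0.91 to 1.2.

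Pcdhb16 was at 6.36 and 10.1 CPM in Cre uncrushed and 5.44 and 7.89 CPM in Cre crushed libraries. Without Cre it was at 12.5 and 16.3 CPM in uncrushed and 17.7 and 11.1 CPM in crushed libraries. All 4 Cre libraries were below all 4 others, as in 25.2% of all genes, a pattern shared with Pcdhb18 and the gamma locus. The log2 fold change was -0.97 ± 0.27 (adjusted p = 0.00811, edgeR quasi-likelihood test), which passed with each library left out (-1.11 to -0.74), while with library size alone it was -0.59 (adjusted p = 0.206).

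Pcdhb18 was at 5.45 and 7.59 CPM in Cre uncrushed and 7.84 and 6.71 CPM in Cre crushed libraries, and without Cre at 15.6 and 8.53 CPM in uncrushed and 11.2 and 13.6 CPM in crushed libraries. Its log2 fold change was -0.81 ± 0.27 (adjusted p = 0.0184, edgeR quasi-likelihood test). The call was lost without animal 52, 58, 10 or 4 (-0.74 to -0.59), and with library size alone the fold change was -0.36 (adjusted p = 0.383). Pcdhb17, which lies between Pcdhb16 and Pcdhb18, was not called in this comparison.

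**Figure D4:**
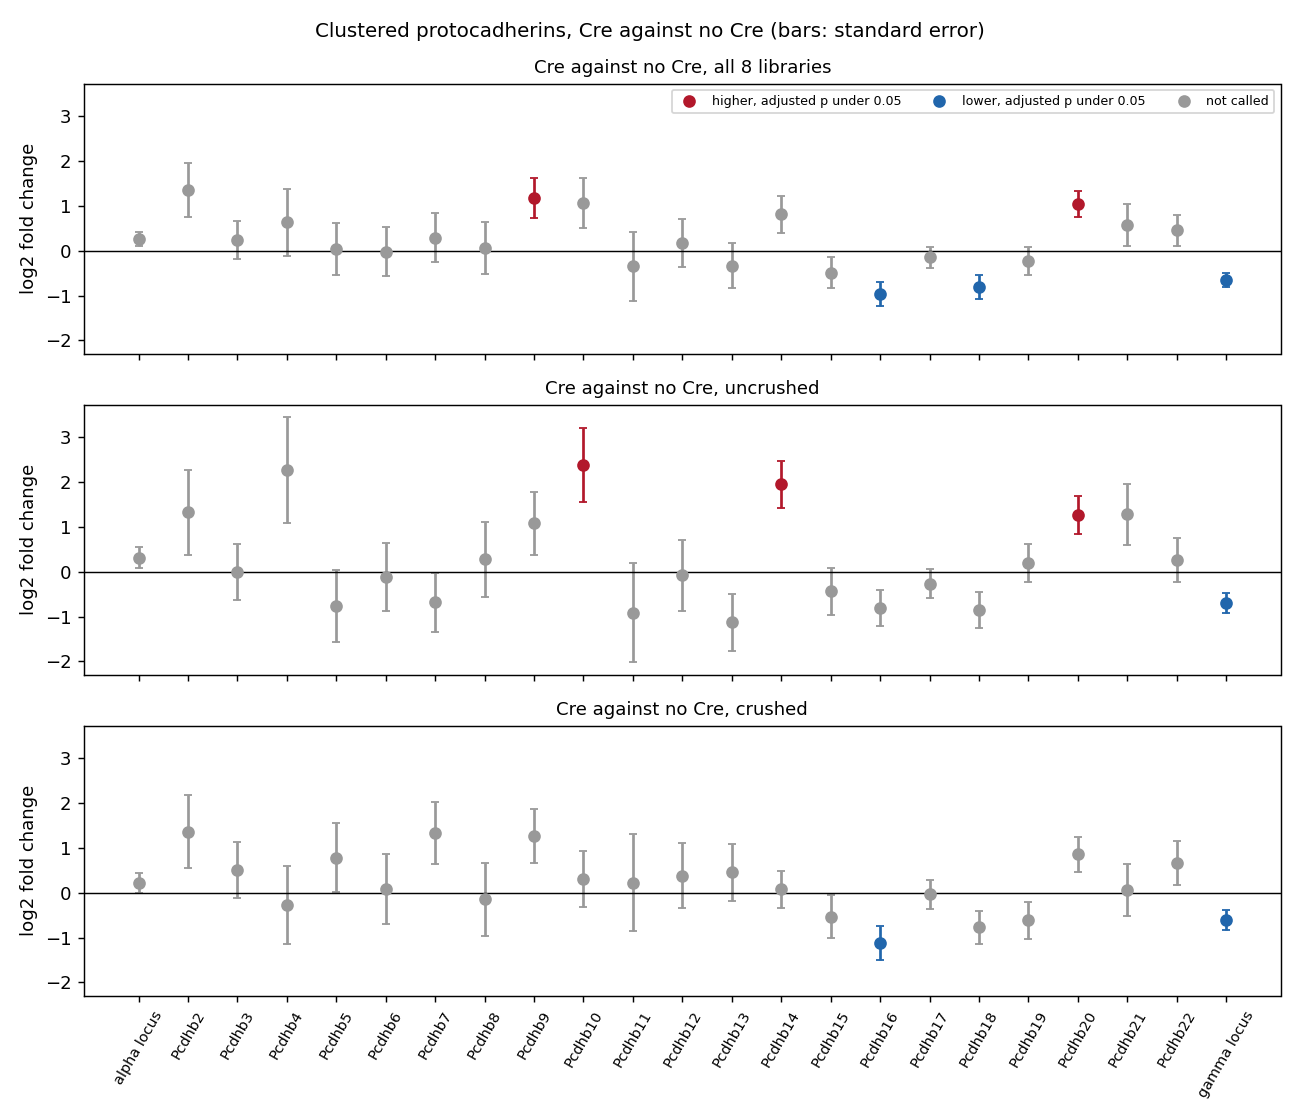
Log2 fold change of Cre against no Cre on the vertical axis for the 23 members tested, ordered along the clusters on the horizontal axis, over all 8 libraries (top), in uncrushed mice (middle) and in crushed mice (bottom). Bars are standard errors, and colour marks an adjusted p under 0.05. Over all libraries 2 members are higher and 3 lower, and the gamma locus is lower in all 3 panels.

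In uncrushed mice alone, 3 members were higher and 1 lower with Cre, against 20.6% and 21.9% of all genes (42.5% in either direction). They were Pcdhb10, Pcdhb14, Pcdhb20 and, lower, the gamma locus. Pcdhb20 had a log2 fold change of 1.27 ± 0.42 there (adjusted p = 0.0304, edgeR quasi-likelihood test), a call lost without animal 52, 10, 4 or 6 (0.92 to 1.33). In crushed mice alone, none was higher and 2 were lower, Pcdhb16 and the gamma locus, against 21.6% and 21.3% of all genes (42.9% in either direction). Pcdhb16 had a log2 fold change of -1.12 ± 0.38 there (adjusted p = 0.0348, same test), a call lost without animal 35, 51 or 52 (-1.37 to -0.71). DESeq2 also called 2 in crushed mice. An unadjusted p under 0.05 was found there in 3 of the 23 members and in 7893 of all 15208 genes.

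In uncrushed mice Pcdhb14 reached 6.49 and 5.64 CPM with Cre, against 1.17 CPM (animal 4) and 1.87 CPM (animal 6) without. These no-Cre values rest on 3 and 7 counts. In crushed mice Pcdhb14 was at 6.89 and 5.29 CPM with Cre and 6.35 and 5.15 CPM without. The no-Cre uncrushed pair thus stood apart from the other 6 libraries. The log2 fold change with Cre was 1.95 ± 0.52 in uncrushed mice (adjusted p = 0.0119, edgeR quasi-likelihood test), and without both animals 3 and 4 it was 1.83 (adjusted p = 0.0711). A fit of the 2 uncrushed groups alone gave 1.85 and no call (adjusted p = 0.0527, same test). In crushed mice the log2 fold change was 0.08 ± 0.41 (adjusted p = 0.89). The difference between these fold changes, -1.87 ± 0.67, was not called by the same test (adjusted p = 0.83).

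Among uncrushed mice, Pcdhb10 reached 4.16 and 2.82 CPM with Cre, against 1.17 CPM (animal 4) and 0.27 CPM (animal 6) without, where it rests on 3 counts and 1 count. In crushed mice it was at 3.86 and 2.68 CPM with Cre and 2.16 and 3.16 CPM without. Its log2 fold change in uncrushed mice was 2.38 ± 0.82 (adjusted p = 0.037, edgeR quasi-likelihood test), and the call was lost without animal 35, 52, 10, 3 or 6 (1.62 to 2.67). Without animal 4 it was 3.67, and without both animals 3 and 4 it was 3.93 (adjusted p = 0.0402, same test). In 5 libraries neither Pcdhb10 nor Pcdhb6 had a whole count, and in 3 of these the sum of both was whole within 0.005. Summed, Pcdhb6 and Pcdhb10 were at 6.75 and 7.20 CPM in Cre uncrushed and 2.33 and 6.39 CPM in no-Cre uncrushed libraries. Animal 6 had 23.0 counts for Pcdhb6 and 1.04 for Pcdhb10, and how many of these reads fitted more than 1 gene was not analysed here.

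After nerve crush no member was called. With Cre, 0 of 23 members passed the edgeR quasi-likelihood test, DESeq2 called 0, and 0 had an unadjusted p under 0.05, where 0.0395% of all genes were called higher and 0.0329% lower (0.0723% in either direction). Without Cre, 0 of 23 passed by either tool and 5 had an unadjusted p under 0.05, where 0.0197% and 0.0526% of all genes were called (0.0723% in either direction). For the difference of the crush effect between Cre and no Cre, 0 passed by either tool, 1 had an unadjusted p under 0.05, and 0.0% of all genes were called. Of all 15208 genes, 1421 had an unadjusted p under 0.05 for crush with Cre, 1941 without Cre and 905 for the difference. Standard errors of single beta genes in the Cre libraries ran from 0.31 to 1.04 on the log2 scale.

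The loci moved little with crush. The gamma locus changed by -0.15 ± 0.22 with Cre (approximate 95% interval -0.57 to 0.28) and by -0.23 ± 0.22 without, and the alpha locus by -0.06 ± 0.23 and 0.05 ± 0.23, none of which was called by the edgeR quasi-likelihood test. The summed beta genes had log2 ratios of crushed to uncrushed means of -0.26 with Cre and -0.29 without. In each case both crushed libraries were below both uncrushed ones, as in 24.0% of single genes with Cre and 19.1% without. With library size alone as the scale, the beta ratios turned to 0.18 and 0.72 and the gamma ratios to 0.29 and 0.73, while the median of all genes rose by 0.44 with Cre and by 0.96 without.

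The 2 members with the smallest p for crush with Cre were Pcdhb19 and Pcdhb3. With Cre, Pcdhb19 stood at 6.10 CPM (animal 10) and 12.1 CPM (animal 3) in uncrushed mice and at 5.50 and 4.66 CPM in crushed mice, with 7.0 and 8.80 CPM in no-Cre uncrushed and 6.89 and 8.64 CPM in no-Cre crushed libraries. Animal 3 alone stood high. The log2 fold change was -0.84 ± 0.41 (adjusted p = 0.574, edgeR quasi-likelihood test). Pcdhb3 was at 6.49 and 6.22 CPM in Cre uncrushed and 2.53 and 3.55 CPM in Cre crushed libraries, with 10.5 and 2.67 CPM in no-Cre uncrushed and 1.62 and 2.66 CPM in no-Cre crushed libraries. Crushed libraries were below uncrushed ones both with and without Cre, patterns found singly in 24.0% and 19.1% of all genes. The log2 fold changes were -1.06 ± 0.58 with Cre (adjusted p = 0.645, same test) and -1.58 ± 0.66 without (adjusted p = 0.362).

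With Cre, 7 of 23 members had both crushed libraries below both uncrushed ones, against 24.0% of all genes, and 1, Pcdhb9, had both above, against 26.1%. Without Cre, 6 were below, against 19.1%, and 5 above, against 19.8%. Pcdhb3, Pcdhb17, Pcdhb22 and the gamma locus were below in both, and the share of all genes below in both was not computed. For Pcdhb3 without Cre the margin was narrow, with 2.66 CPM in crushed animal 58 and 2.67 CPM in uncrushed animal 6. The median log2 fold change of the members after crush was -0.20 with Cre and -0.04 without, and that of all genes 0.03 and -0.03. In the Cre libraries oligodendrocyte markers summed to 719 to 887 CPM in uncrushed and 1117 to 1850 CPM in crushed mice, and microglial markers to 6.40 to 6.50 and 13.3 to 15.2 CPM. In the no-Cre libraries the oligodendrocyte sum was lower after crush, at 6898 to 7896 CPM in uncrushed and 4667 to 6494 CPM in crushed mice. The microglial sum there was 56.4 to 103 CPM in uncrushed and 115 to 133 CPM in crushed mice. None of these markers was called for crush, and their part in the values of the members was not tested.

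**Figure D5:**
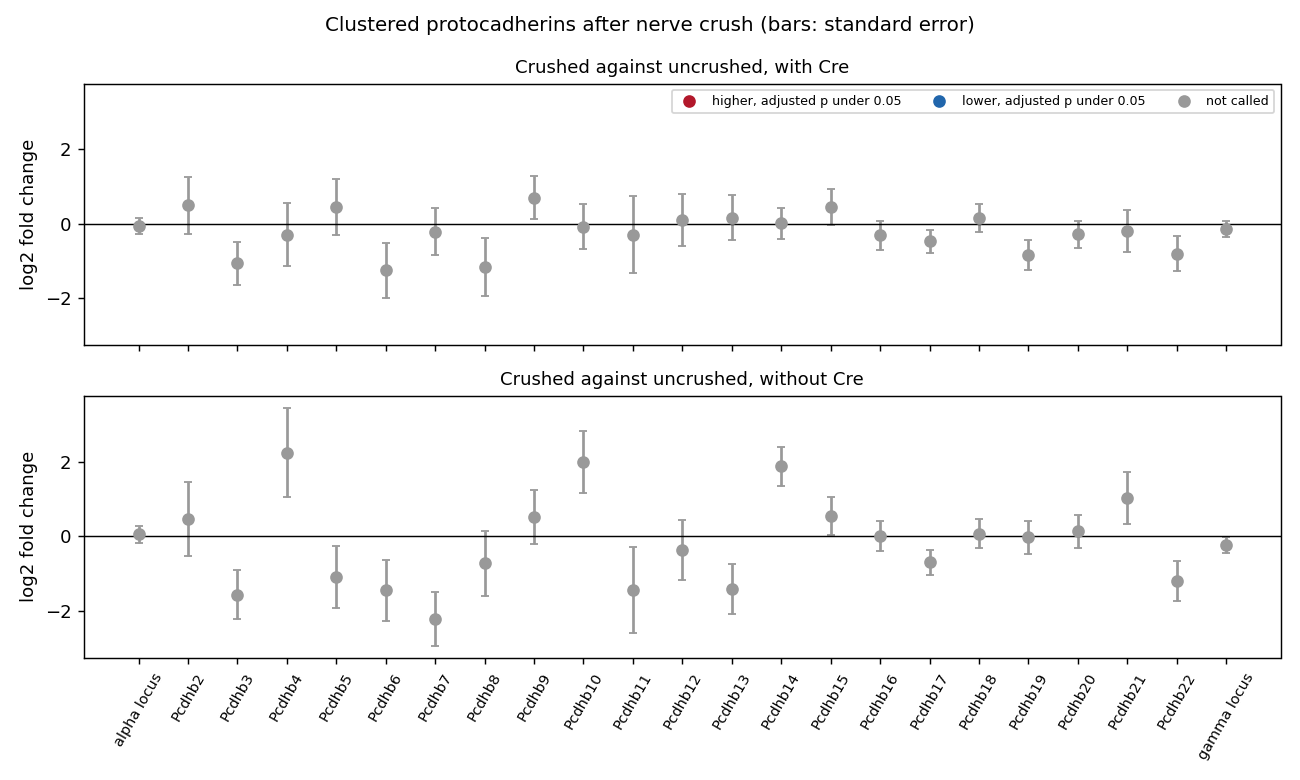
Log2 fold change of crushed against uncrushed on the vertical axis for the 23 members tested, ordered along the clusters on the horizontal axis, with Cre (top) and without Cre (bottom). Bars are standard errors, and none of the members was called. Values run from -1.26 to 0.70 with Cre and from -2.22 to 2.25 without.

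Genes that act on the clusters or with their proteins were followed in the same comparison of Cre with no Cre over all libraries. Promoter choice in the alpha and gamma clusters depends on CTCF and cohesin, which loop promoters to distant enhancers, and on DNA methylation. Of 16 such genes 2 were higher and 10 lower with Cre, with a median log2 fold change of -0.80, where 28.7% of all genes were higher and 31.2% lower with a median of -0.07. Smc1a, a core cohesin subunit, was higher at 0.44 ± 0.17 (adjusted p = 0.042, edgeR quasi-likelihood test). Smc3, its partner in the ring, was lower at -1.07 ± 0.19, Pds5b, a cohesin regulator, at -0.66 ± 0.17, and Dnmt3a, a DNA methyltransferase, at -1.89 ± 0.18. Ctcf itself, at -0.03 ± 0.23, was not called.

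Of 17 genes for partners, cleavage and signalling of the proteins, 8 were higher and 4 lower with Cre (median 0.41), against the same 28.7% and 31.2% of all genes. Cyfip2 and Nckap1, subunits of the WAVE complex that drives actin branching, were higher at 0.66 ± 0.17 and 0.99 ± 0.16. Ret, a receptor tyrosine kinase reported to associate with alpha and gamma protocadherins and itself a motor neuron marker here, was higher at 3.05 ± 0.27. Abi2, another WAVE subunit, was at 0.41 ± 0.17 and not called (adjusted p = 0.0548, edgeR quasi-likelihood test). The 4 lower genes were Marcks, an actin-binding membrane protein, at -1.66 ± 0.18, Cyfip1, a WAVE subunit, at -1.37 ± 0.17, Ptk2, the focal adhesion kinase, at -1.11 ± 0.20, and Adam10, a protease that sheds cadherins, at -0.77 ± 0.21.

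Protocadherins outside the clusters are cadherin-like adhesion proteins of single genes. Of 11 tested, 3 were higher and 3 lower, with a median of -0.03, against 28.7% and 31.2% of all genes. Pcdh17 was higher at 1.04 ± 0.19, Pcdh1 at 0.62 ± 0.16 and Pcdh7 at 0.42 ± 0.17, and Pcdh9, at 0.12 ± 0.19, was not called. Pcdh15 was lower at -1.90 ± 0.25, Pcdh18 at -1.24 ± 0.44 and Pcdh11x at -0.77 ± 0.27. Of 19 cadherin genes with Cdh symbols 7 were higher and 7 lower, with a median of 0.32, against 28.7% and 31.2% of all genes. Cdh2, the N-cadherin of neurons, was higher at 0.56 ± 0.17, Cdh13 at 1.58 ± 0.23 and Cdh12 at 1.90 ± 0.23, whereas Cdh20 was lower at -0.58 ± 0.18. After crush no gene of these 4 lists was called, with or without Cre.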

How the data were processed

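The authors deposited 1 gene table per library with expected counts per gene, made with Bowtie2 2.2.0 and RSEM 1.2.12 per the submitters' processing notes. Expected counts estimate reads per gene, dividing ambiguous reads among genes, and were rounded here. The deposited effective lengths (type other, in bases as RSEM gives them) were used for CPM per kilobase. The build and gene models behind the tables were not given in the sources used here, and coordinates were left out. Symbols matched 37607 of 38924 identifiers (96.6%), and GENCODE M21 gave the transcripts of each cluster.

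Genes were filtered with filterByExpr (minimum count 10, minimum total 15), which left 15208. Libraries were scaled by TMM in edgeR 4.0.16 (R 4.3.3), and the 8 libraries entered a quasi-likelihood model with a mean for each group (4 residual degrees of freedom, biological coefficient of variation 0.276). Cre against no Cre over all libraries came from a second quasi-likelihood model, with additive terms for Cre and crush. Tests were two-sided, with calls at a Benjamini-Hochberg adjusted p of 0.05 over all genes. Standard errors were taken from each log2 fold change and the root of its F statistic. With 2 animals a group, p-values rest only on the spread between these animals, pooled over all groups and drawn towards that of other genes. Totals and floors (3 counts, 0.19 to 1.17 CPM) cover counting error only. Fits were checked on simulated data.

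Alternatives were DESeq2 1.42.0, its size factors, library size alone, no filter, fits of the compared groups, grouping by genotype entry, leaving out both contradictory libraries, age as a covariate, and each library left out in turn. Within a group, age differed only between animals 35 and 52, so the age covariate cannot be told apart from animal 35. The members and gene lists were chosen with earlier results of these data known. Named were, per cluster, the 3 members highest per length, up to 3 called each way over all libraries, the 2 with the smallest p for crush with Cre, and up to 4 genes per pathway list. Ctcf, S100b, Pcdhb10, Pcdhb14, Pcdhb7, Pcdhb13, Pcdhb5, Pcdhb11, Pcdhb12 and the lower genes Marcks, Cyfip1, Ptk2, Adam10, Pcdh15, Pcdh18 and Pcdh11x were named after their values were seen. Shares of variable-exon classes within the alpha and gamma clusters were planned but could not be computed from 1 row per cluster.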

Additional observations from a re-analysis of the deposited data

How the results depend on the processing

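No paired analysis was possible because the groups share no animal number. Against 4 members called in uncrushed mice, 3 were called with library size alone and with no filter, 2 with both contradictory libraries left out, 2 with age as a covariate, 2 with DESeq2, 1 with a fit of the compared groups and 0 with groups by the genotype entry. Against 2 in crushed mice, 0 were called with library size alone, 0 with the genotype entry and 0 with age as a covariate. Against 5 over all libraries, 0 were called with the genotype entry and 4 or 5 with every other alternative run. Over all libraries the called members were not always the same. Library size alone kept the calls of Pcdhb20 and Pcdhb9 and none of the lower ones. No filter lost Pcdhb18 and brought in Pcdhb2. For crush without Cre, library size alone gave 1 call (Pcdhb14, 2.85, adjusted p = 0.0443, edgeR quasi-likelihood test) and no filter gave 1 (Pcdhb7, -2.17, adjusted p = 0.0315). Leaving out each library gave 1 to 4 calls in uncrushed mice, 0 to 3 in crushed mice, 4 to 5 over all libraries and 0 to 0 for both crush effects and their difference.

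With library size alone, log2 ratios of the alpha locus were 0.99 for Cre in uncrushed and 0.37 in crushed mice, and 0.37 and 0.99 for crush with and without Cre. The beta sum was at 0.70 and 0.15 for Cre in uncrushed and crushed mice, and its crush ratios turned to 0.18 with Cre and 0.72 without. The gamma locus was at -0.03 and -0.47 for Cre, and its crush ratios turned to 0.29 with Cre and 0.73 without. Relative to the median of all genes, the gamma locus stood after crush at -0.17 with Cre and -0.20 without, with either scale. Why the 2 scales differ was not tested. Of 171 repeats of a called member under an alternative, 104 kept the call, 67 lost it and 0 turned direction. Depth limits the beta genes, of which 15 of 22 fell under 10 counts in a library.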
